A study of Mus musculus with 14 samples.

Results

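Plau, Plaur, Serpinb2, S100a10 and Anxa2, genes of plasminogen activation at the cell surface, were followed in primary bone marrow-derived macrophages (pBMDMs) exposed to supernatants of living or ferroptotic fibroblasts. They were taken by their symbols, and are 5 of the 55414 genes of the deposited count table. The pBMDMs came from wildtype C57BL/6N mice, were differentiated with M-CSF and received filtered supernatants of Pfa1 MEFs for 24 h. Pfa1 MEFs are a single mouse embryonic fibroblast line in which 4-hydroxytamoxifen (4OHT) deletes GPX4, the enzyme that removes lipid peroxides, so that the cells die by ferroptosis. The groups were supernatant of untreated MEFs (ctrl), of MEFs with Ferrostatin-1, an inhibitor of ferroptosis (Fer1), of MEFs with 4OHT and Ferrostatin-1 (4OHT+Fer1), and of MEFs with 4OHT alone (4OHT, the ferroptotic supernatant, called Tam in the sample titles), with 3 samples each, and medium never in contact with MEFs (medium), with 2 samples. The knockout was in the MEFs, so the sequenced macrophages carried no deletion whose loss of transcript could check the labels.

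Plasminogen is an inactive precursor in blood and tissue fluid, and cutting by an activator turns it into plasmin, a protease that dissolves fibrin and degrades matrix. Plau encodes the activator urokinase, and Plaur its receptor uPAR, which is anchored in the outer membrane by a lipid and keeps urokinase at the cell surface. S100a10 and Anxa2 encode the partners of a membrane complex that binds plasminogen, and Serpinb2 encodes PAI-2, an inhibitor of urokinase that macrophages keep largely inside the cell and that is known as a gene of activated monocytes and macrophages.

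The libraries held between 7823051 and 11052352 counts, and all 5 genes passed the filter on low counts, as did 12851 genes in all. Serpinb2 passed only through its 4OHT samples, since without 4OHT replicate 1 or 4OHT replicate 3 it was not tested. Levels are given as CPM, counts scaled by library size and TMM factors to a common unit. Because the libraries start from the 3′ end of transcripts, a count does not grow with the length of the gene. A gene was called where its log2 fold change lay beyond 1 in either direction and its adjusted p was below 0.05 in the quasi-likelihood test of edgeR, adjusted by Benjamini-Hochberg over all genes tested, with the replicate number as a block. All 8 macrophage markers were detected in every group. Their sum, most of it Lyz2, was 28021 to 43878 CPM in 4OHT, 27509 to 34357 in medium and 18863 to 28853 after supernatants of living MEFs, and without Lyz2 it was 6481 to 7685, 7001 to 8597 and 4167 to 7547 CPM. The 10 fibroblast markers summed to between 16 and 121 CPM, with ranges that overlapped between all groups. The 6 neutrophil markers summed to 6.48 and 10.9 CPM in the medium group and to at most 4.81 CPM elsewhere, carried by Camp and Ngp, with Ly6g and Elane at 0. The 5 mast cell and basophil markers summed to between 0.725 and 3.06 CPM in 4OHT and to at most 0.794 CPM elsewhere. In 4OHT, 4 of the 5 had 0 counts, so that a single gene made up the sum. In each other group 2 or 3 of the 5 had 0 counts. The dendritic cell and lymphocyte markers summed to at most 1.19 and 0.531 CPM. The part of these differences in the results was not tested, and in bulk RNA fewer cells of a type and less RNA per cell cannot be told apart.

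Serpinb2 and Plaur were high in pBMDMs exposed to ferroptotic supernatant and also in those given fresh medium, and low after each of the supernatants of living MEFs. Anxa2 and S100a10 were abundant, with similar levels after all supernatants and lower means in medium, while Plau varied widely within groups. Serpinb2 passed the threshold in 4OHT against 4OHT+Fer1 and against Fer1 but not against ctrl, and Plaur passed it in ctrl and in 4OHT+Fer1 against medium but in none of the comparisons with 4OHT. These calls depended on the replicate block, without which none of the 5 genes was called in any comparison. Calls over all 12851 genes tested also fell without the block, in 4OHT against 4OHT+Fer1 from 132 to 18.

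The mean levels of the 5 genes spanned a wide range. Averaged over all samples, Anxa2 stood at percentile 96.4 and S100a10 at percentile 91.9 of the tested genes, Plaur and Plau at percentiles 29.0 and 23.8, and Serpinb2 at percentile 0.903, close to the lower limit of what was tested. The ratio of the highest to the lowest group mean was 24.3 for Serpinb2, 4.54 for Plau, 2.80 for Plaur, 1.46 for S100a10 and 1.34 for Anxa2. A floor of 3 counts corresponded to between 0.272 and 0.381 CPM, which covers counting error only.

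**Figure D1:**
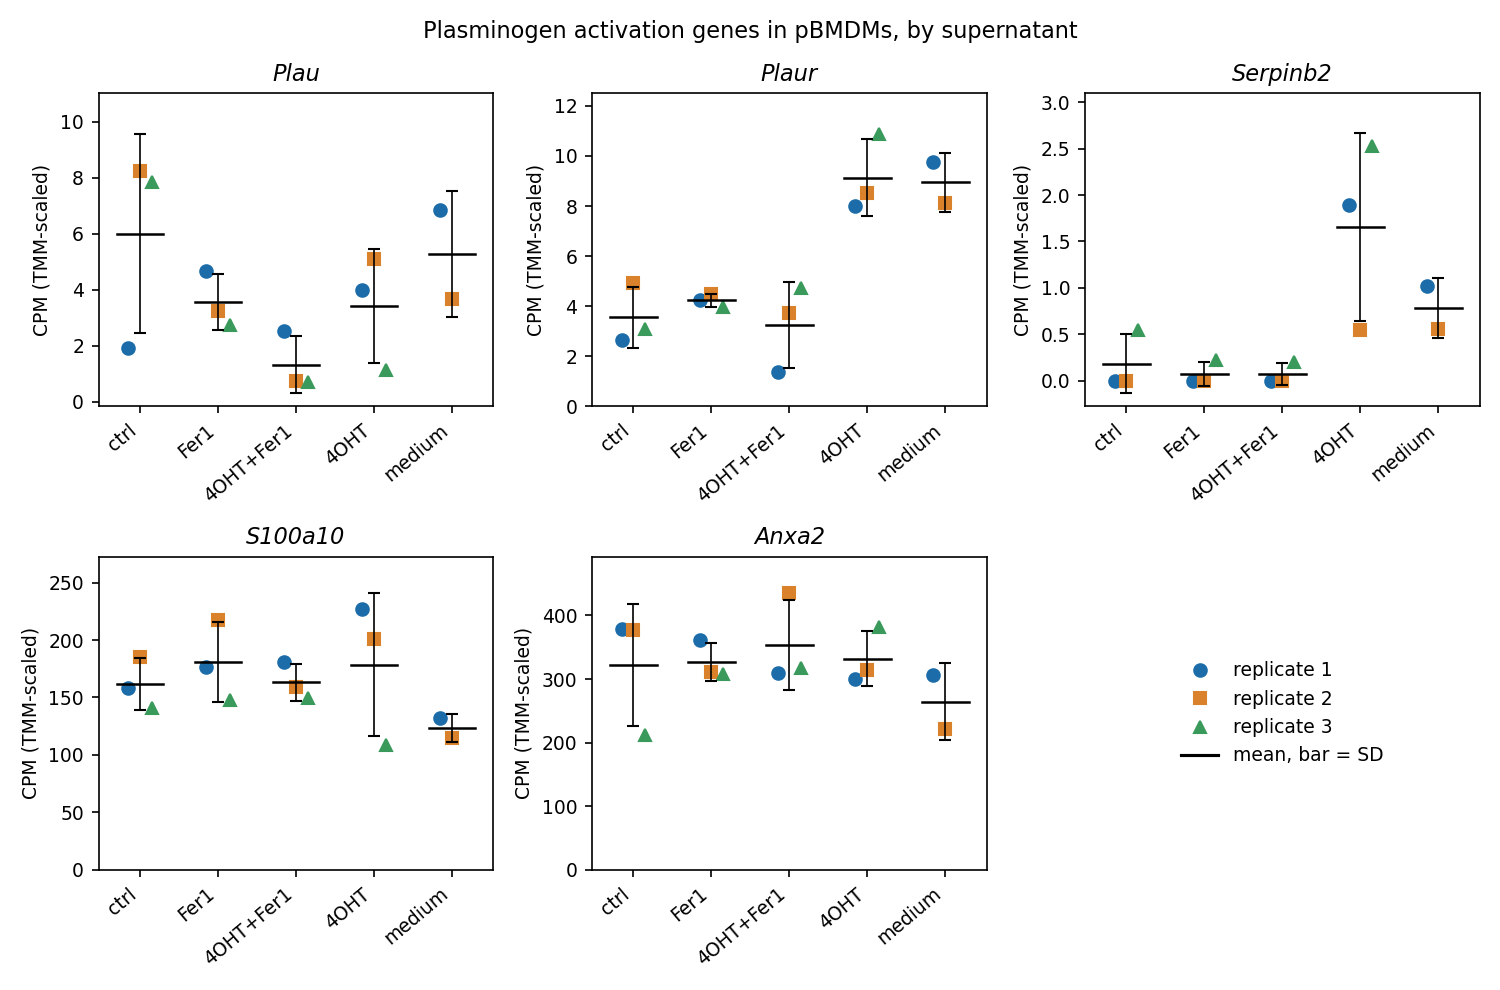
Level of each gene in every sample, in CPM on a linear axis, by group, with marker shape and color for the replicate number, a horizontal line for the group mean and a bar for the SD (3 samples per group, 2 for medium). Plaur lies above 8 CPM in every 4OHT and medium sample and below 5 CPM in every ctrl, Fer1 and 4OHT+Fer1 sample, while Serpinb2 does not exceed 2.53 CPM in any sample.

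The sequences before the transcription start of Plaur and Serpinb2, whose levels went together, and of Anxa2, whose level did not go with them, are shown to set the genes beside each other. They are RefSeq sequence of build GRCm38.p6 on the plus strand, from 250 bases before the start, for Plaur at chr7:24462233-24462482, for Serpinb2 at chr1:107511173-107511422 and, stopping before the annotated gene, for Anxa2 at chr9:69453433-69453619. Capitals mark matches to TGANTCA, the motif of AP-1 factors, TATAAA, the TATA box, and GAGGAA, the core of PU.1 motifs, the last read as TTCCTC on the other strand.
Plaur: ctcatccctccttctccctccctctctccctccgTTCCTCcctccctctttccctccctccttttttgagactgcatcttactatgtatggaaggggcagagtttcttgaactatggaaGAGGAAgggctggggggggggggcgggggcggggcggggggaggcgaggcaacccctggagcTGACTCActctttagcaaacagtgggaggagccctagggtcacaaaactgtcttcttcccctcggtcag
Serpinb2: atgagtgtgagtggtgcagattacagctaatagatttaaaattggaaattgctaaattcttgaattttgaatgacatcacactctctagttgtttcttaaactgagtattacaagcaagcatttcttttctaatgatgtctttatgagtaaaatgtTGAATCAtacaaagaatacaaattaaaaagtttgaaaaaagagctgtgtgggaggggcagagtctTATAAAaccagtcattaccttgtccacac
Anxa2: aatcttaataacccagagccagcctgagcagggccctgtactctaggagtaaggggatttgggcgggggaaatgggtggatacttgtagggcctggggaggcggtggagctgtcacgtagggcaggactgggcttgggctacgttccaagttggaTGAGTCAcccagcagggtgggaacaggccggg
All 3 sequences held an AP-1 match, with its first base 69 bases before the RefSeq start in Plaur, 94 in Serpinb2 and 95 in Anxa2. For Anxa2 that start lies inside the annotated gene. Serpinb2 had a TATA box that began 29 bases before the start. Anxa2 had one that began 17 bases before the RefSeq start, inside the annotated gene and outside the stretch shown. Before a second RefSeq start of Serpinb2, an AP-1 match began at 181 bases and a TATA box at 116. The PU.1 core occurred only in Plaur among the 3, beginning 131 bases before the start on the plus strand and 216 bases before it on the minus strand. Of 32851 RefSeq promoter windows of 250 bases, 6.75% held the AP-1 motif, 12.4% the TATA box, 23.3% the PU.1 core and 3.9% an NF-kB motif, on either strand, and no motif overlapped another in the stretches shown. The NF-kB motif had no match in these 3 windows. A match describes letters only and shows neither binding nor a cause.

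Plau, the urokinase gene (ENSMUSG00000021822, protein coding, plus strand of chr14:20836660-20843385 in GRCm38), was highest on average in ctrl and lowest in 4OHT+Fer1. Its levels were 1.92, 8.24 and 7.84 CPM in ctrl replicates 1 to 3, 4.66, 3.23 and 2.75 CPM in Fer1, 2.51, 0.743 and 0.717 CPM in 4OHT+Fer1, 4.0, 5.08 and 1.14 CPM in 4OHT, and 6.86 and 3.67 CPM in medium. All ranges overlapped that of 4OHT, and ctrl replicate 1 and 4OHT replicate 3 stood well below the other samples of their groups. The group means were 6.0 ± 3.54 CPM in ctrl, 3.55 ± 0.993 in Fer1, 1.32 ± 1.03 in 4OHT+Fer1 and 3.41 ± 2.04 in 4OHT (SD, n = 3), and 5.26 ± 2.25 CPM in medium (SD, n = 2). The counts behind them ran from 7 to 82 reads per sample.

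Between 4OHT and ctrl, the log2 fold change of Plau was −0.94 (SE 0.61, edgeR adjusted p = 0.678), with a 95% interval from −2.27 to 0.39. Against 4OHT+Fer1, 4OHT differed by 1.37 (SE 0.68, edgeR adjusted p = 0.464), and against Fer1 by −0.08 (SE 0.61, edgeR adjusted p = 0.991). The widest difference was that of 4OHT+Fer1 from ctrl, −2.31 (SE 0.67, edgeR adjusted p = 0.948), with a 95% interval from −3.78 to −0.84. The 4OHT+Fer1 samples lay below every Fer1 sample, but the difference of −1.45 (SE 0.67) did not pass either (edgeR adjusted p = 1.00). They also lay below both medium samples, with a difference of −1.84 (SE 0.73, edgeR adjusted p = 0.141) and a 95% interval from −3.42 to −0.26. That difference passed with only the groups compared in the model (edgeR adjusted p = 0.0486). With a single library left out, it passed only without ctrl replicate 1 (0.0441), which is outside the comparison. Without 4OHT+Fer1 replicate 2 the edgeR adjusted p was 0.363. The other groups overlapped with medium and differed from it by between −0.47 and 0.47. In order of their means, the neighboring groups 4OHT+Fer1, 4OHT, Fer1, medium and ctrl did not differ beyond their spread at any step.

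Plaur, the receptor gene (ENSMUSG00000046223, protein coding, plus strand of chr7:24462484-24475968), had higher levels in 4OHT and medium than in the other groups, without overlap. Its levels were 2.63, 4.93 and 3.09 CPM in ctrl, 4.27, 4.48 and 3.97 CPM in Fer1, 1.36, 3.72 and 4.71 CPM in 4OHT+Fer1, 8.01, 8.52 and 10.9 CPM in 4OHT, and 9.78 and 8.12 CPM in medium. The lowest 4OHT or medium sample lay above the highest sample of the supernatants of living MEFs. The group means were 3.55 ± 1.21 CPM in ctrl, 4.24 ± 0.261 in Fer1, 3.26 ± 1.72 in 4OHT+Fer1, 9.14 ± 1.53 in 4OHT (SD, n = 3) and 8.95 ± 1.17 in medium (SD, n = 2), from 13 to 94 reads per sample.

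The log2 fold change of Plaur in 4OHT was 1.36 over ctrl (SE 0.34, edgeR adjusted p = 0.0842), 1.52 over 4OHT+Fer1 (SE 0.35, edgeR adjusted p = 0.0585) and 1.09 over Fer1 (SE 0.34, edgeR adjusted p = 0.188). In each of these comparisons 4OHT was higher in 3 of 3 replicate numbers, and an exact two-sided permutation test gave p = 0.1, which is the lowest value possible with 3 samples in each group. By the edgeR adjusted p, Plaur was not called at any of the 3, whereas DESeq2 called it over ctrl with an adjusted p of 0.0120 and over 4OHT+Fer1 with an adjusted p of 0.00325. With a single library left out, Plaur was called over ctrl in 1 of 14 fits. That fit lacked 4OHT+Fer1 replicate 1, the sample with the lowest Plaur (edgeR adjusted p = 0.0281). Over 4OHT+Fer1 it was called in 1 of 14, that without ctrl replicate 3 (0.0314). Neither library belonged to the groups compared. In the other fits the edgeR adjusted p reached 0.284 over ctrl and 0.204 over 4OHT+Fer1. Without the replicate block it was 0.223 and 0.162. The contrast of the 4OHT effect without Ferrostatin-1 with the effect in its presence was 1.80 (SE 0.50, edgeR adjusted p = 0.353).

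The levels of Plaur in medium also lay above those after each supernatant of living MEFs. Relative to medium, ctrl was lower by a log2 fold change of −1.45 (SE 0.38, edgeR adjusted p = 0.0318) and 4OHT+Fer1 by −1.61 (SE 0.40, edgeR adjusted p = 0.0229), and both passed. Fer1 differed from medium by −1.17 (SE 0.38, edgeR adjusted p = 0.0767), and 4OHT by −0.08 (SE 0.38, edgeR adjusted p = 0.962), with a 95% interval from −0.90 to 0.73. Without the replicate block, the edgeR adjusted p was 0.0935 for ctrl and 0.0650 for 4OHT+Fer1. The call of ctrl against medium was lost without ctrl replicate 1 (edgeR adjusted p = 0.108), ctrl replicate 3 (0.0556), medium replicate 1 (0.346) or medium replicate 2 (0.0650), and that of 4OHT+Fer1 without 4OHT+Fer1 replicate 1 (0.0604), 4OHT+Fer1 replicate 2 (0.0660), medium replicate 1 (0.260) or medium replicate 2 (0.0528).

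Serpinb2, the inhibitor gene (ENSMUSG00000062345, protein coding, plus strand of chr1:107511423-107535478), had very few reads. There were 0, 0 and 5 reads in ctrl, 0, 0 and 2 in Fer1, 0, 0 and 2 in 4OHT+Fer1, 18, 6 and 20 in 4OHT, and 8 and 5 in medium. In CPM these were 0, 0 and 0.552 in ctrl, 0, 0 and 0.220 in Fer1, 0, 0 and 0.205 in 4OHT+Fer1, 1.90, 0.544 and 2.53 in 4OHT, and 1.02 and 0.556 in medium. Reads were found in every 4OHT and medium sample, and among the supernatants of living MEFs only in the replicate 3 samples. Replicate 3 had 8.50 to 10.6% mitochondrial counts, against 4.53 to 6.61% in replicates 1 and 2 of the same groups. Medium had no replicate 3, and the part of this in the Serpinb2 levels was not tested. The 4OHT and ctrl ranges touched, since 4OHT replicate 2 lay just under ctrl replicate 3.

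As sums over the group, 44 reads in 4OHT stood against 5 in ctrl, a ratio of 8.94 after scaling for depth (95% exact interval 3.55 to 28.9). Against the 2 reads of Fer1 and the 2 reads of 4OHT+Fer1, the ratio was 22.3 in both cases (5.80 to 189), and against the 13 reads of medium it was 2.01 (1.06 to 4.06). Medium stood at a ratio of 4.45 to ctrl (1.49 to 16). These intervals cover counting error only and not the spread between samples. The tail of Serpinb2 overlaps Serpinb10 on the same strand at chr1:107529003-107535478, where the exons share 291 bases, and Serpinb10 had 8 reads over all samples, so that reads of the shared bases may have been split between the genes.

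In the test over all genes, Serpinb2 was higher in 4OHT than in 4OHT+Fer1 by a log2 fold change of 4.67 (SE 0.97, edgeR adjusted p = 0.0386) and than in Fer1 by 4.61 (SE 0.97, edgeR adjusted p = 0.0393). Both passed, and 4OHT was higher in 3 of 3 replicate numbers in each. Over ctrl the value was 3.51 (SE 0.85, edgeR adjusted p = 0.0697), which did not pass, again with 3 of 3 replicate numbers higher. With so few reads, a fitted log2 fold change depends on the prior count and is not a bound. The gene passed the filter on low counts only through 4OHT, the group where it was high, so these p-values are not independent support.

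The Serpinb2 calls rested on few reads in few libraries. In the model lacking the replicate block, Serpinb2 over 4OHT+Fer1 had a log2 fold change of 4.32 with an edgeR adjusted p of 0.281, and over Fer1 it was 4.30 with an adjusted p of 0.303. When 1 of the 14 libraries was left out, the call over 4OHT+Fer1 remained only without ctrl replicate 1 or ctrl replicate 3, and the call over Fer1 only without either of these or 4OHT+Fer1 replicate 1. Without 4OHT replicate 1 or 4OHT replicate 3 the gene did not pass the filter, and elsewhere the edgeR adjusted p reached 0.204 over 4OHT+Fer1 and 0.223 over Fer1, each without the replicate 3 sample of the group compared. DESeq2 gave no adjusted p for Serpinb2 in these comparisons, and over ctrl it called the gene at 4.07 with an adjusted p of 0.0226. Over all genes, the edgeR calls in 4OHT against 4OHT+Fer1 also changed when a library was left out. From 132 they fell to 18 without 4OHT+Fer1 replicate 3 and to 20 without 4OHT replicate 1. They rose to 188 without ctrl replicate 3 and to 282 without 4OHT replicate 3.

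Relative to medium, Serpinb2 was lower in Fer1 by a log2 fold change of −4.46 (SE 1.14, edgeR adjusted p = 0.0274) and in 4OHT+Fer1 by −4.51 (SE 1.15, edgeR adjusted p = 0.0270). Ctrl differed from medium by −3.36 (SE 1.03, edgeR adjusted p = 0.0581), which did not pass, and 4OHT by 0.15 (SE 1.12, edgeR adjusted p = 0.980), with a 95% interval from −2.28 to 2.58. Without the replicate block, the edgeR adjusted p was 0.304 for Fer1 and 0.265 for 4OHT+Fer1. Both calls were lost without either medium sample, without any sample of the group compared, or without 4OHT replicate 1 or 3, when the gene was not tested; where it was tested, the edgeR adjusted p reached 0.147 for Fer1 and 0.144 for 4OHT+Fer1. The contrast of the 4OHT effect without and with Ferrostatin-1 was 3.56 (SE 1.92, edgeR adjusted p = 0.914).

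**Figure D2:**
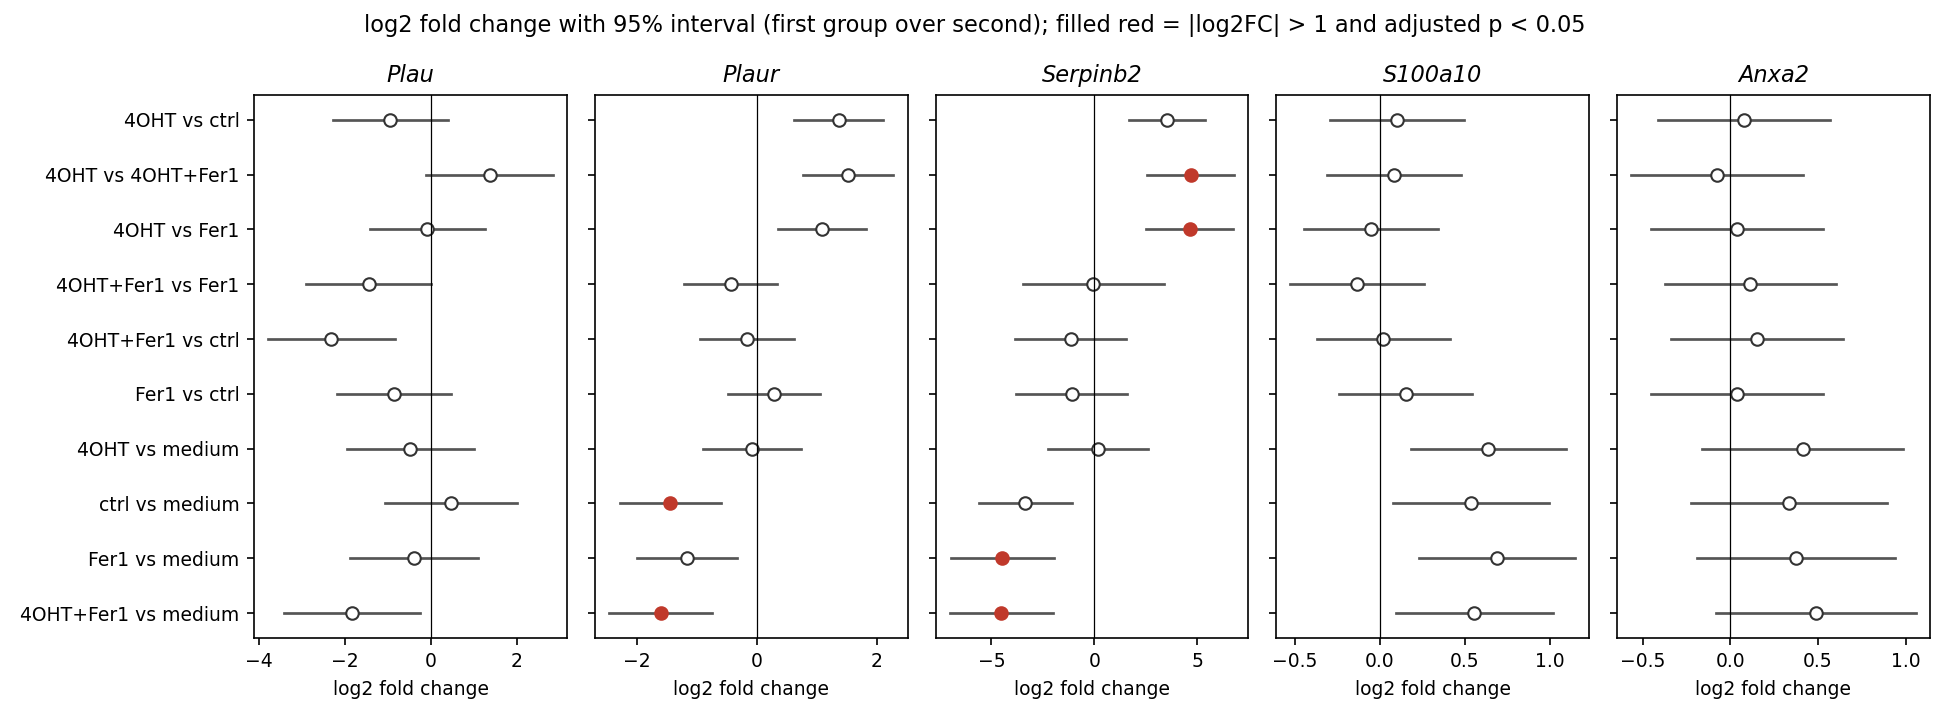
Log2 fold change of each gene in 10 comparisons (first group over second), with points for the edgeR estimate, lines for the 95% interval and red points for called comparisons; the x axis differs between genes. Serpinb2 and Plaur lie to the right of 0 in the comparisons of 4OHT with the supernatants of living MEFs and to the left in those of the latter with medium, while the intervals of Anxa2 include 0 throughout.

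S100a10 and Anxa2, which form the plasminogen-binding complex, were abundant and did not pass the threshold in any comparison. S100a10 (ENSMUSG00000041959, protein coding, plus strand of chr3:93555080-93564643) had 158, 186 and 141 CPM in ctrl, 177, 217 and 148 CPM in Fer1, 180, 159 and 150 CPM in 4OHT+Fer1, 227, 201 and 108 CPM in 4OHT, and 132 and 115 CPM in medium. The 4OHT group held both the highest and the lowest sample, and medium lay below every sample of ctrl, Fer1 and 4OHT+Fer1. The means were 161 ± 22.6, 181 ± 34.9, 163 ± 15.8 and 179 ± 62.2 CPM in ctrl, Fer1, 4OHT+Fer1 and 4OHT (SD, n = 3) and 123 ± 12.5 CPM in medium (SD, n = 2).

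The log2 fold change of S100a10 in 4OHT over ctrl was 0.10 (SE 0.18, edgeR adjusted p = 0.904), with a 95% interval from −0.29 to 0.50. Over 4OHT+Fer1 it was 0.08 (SE 0.18, edgeR adjusted p = 0.933). Against medium, the differences were all positive, 0.69 (SE 0.21, edgeR adjusted p = 0.0603) for Fer1, 0.64 (SE 0.21, edgeR adjusted p = 0.124) for 4OHT, 0.56 (SE 0.21, edgeR adjusted p = 0.126) for 4OHT+Fer1 and 0.54 (SE 0.21, edgeR adjusted p = 0.137) for ctrl. Each 95% interval against medium lay above 0, the lowest bound being 0.08 for ctrl. These comparisons share the 2 medium samples, and none passed. With only the groups compared in the model, the edgeR adjusted p was 8.7e-05 for Fer1, 0.00231 for 4OHT and 0.0357 for ctrl. It was 0.610 for 4OHT+Fer1, and the log2 fold changes stayed below 1.

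Anxa2 (ENSMUSG00000032231, protein coding, plus strand of chr9:69453620-69491795) had 378, 377 and 211 CPM in ctrl, 361, 311 and 309 CPM in Fer1, 310, 436 and 317 CPM in 4OHT+Fer1, 301, 315 and 381 CPM in 4OHT, and 307 and 222 CPM in medium. Ctrl replicate 3 lay below the other samples of its group, and all groups overlapped except that medium lay below Fer1 and 4OHT+Fer1. The means were 322 ± 96.0, 327 ± 29.5, 354 ± 70.8 and 332 ± 43.1 CPM in ctrl, Fer1, 4OHT+Fer1 and 4OHT (SD, n = 3) and 264 ± 60.4 CPM in medium (SD, n = 2). The log2 fold change in 4OHT over ctrl was 0.08 (SE 0.23, edgeR adjusted p = 0.948), with a 95% interval from −0.41 to 0.57. The largest difference was that of 4OHT+Fer1 from medium, 0.49 (SE 0.26, edgeR adjusted p = 0.288). With only the groups compared in the model, the edgeR adjusted p against medium was 0.0165 for Fer1 and 0.0174 for ctrl. It was 0.466 for 4OHT and 0.576 for 4OHT+Fer1, and the log2 fold changes stayed below 1. An antisense gene, Gm16144, and the microRNA gene Mir3109 lie within Anxa2, and both had 0 counts in all samples.

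Ordered by mean level, medium was lowest for S100a10 and Anxa2 but among the highest for Serpinb2 and Plaur. For S100a10 the order continued with ctrl, 4OHT+Fer1, 4OHT and Fer1, and for Anxa2 with ctrl, Fer1, 4OHT and 4OHT+Fer1. Medium and ctrl did not overlap in S100a10, with a 95% interval of the log2 fold change of ctrl from 0.08 to 0.99, but did not pass the threshold, and the other neighbors overlapped. For Plaur the order was 4OHT+Fer1, ctrl, Fer1, medium and 4OHT, and for Serpinb2 4OHT+Fer1, Fer1, ctrl, medium and 4OHT. In these orders, too, no pair of neighbors passed the threshold, the closest being ctrl and medium in Serpinb2 and Fer1 and medium in Plaur. Within a sample, the ratio of Anxa2 to S100a10 counts ran from 1.32 in 4OHT replicate 1 to 3.51 in 4OHT replicate 3, and the ratio of Plaur to Plau counts from 0.394 in ctrl replicate 3 to 9.56 in 4OHT replicate 3.

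The calls of the 5 genes are set beside those of all genes tested. In 4OHT over ctrl 0 of the 5 passed, where 1.11% of all genes did. Over 4OHT+Fer1 and over Fer1 1 of 5 passed, Serpinb2, where 1.03% and 1.02% did. Serpinb2 was among the genes tested only through its 4OHT samples. Against medium, 0 of 5 passed in 4OHT (3.07% of all genes), 1 of 5 in ctrl (Plaur; 7.79%), 1 of 5 in Fer1 (Serpinb2; 7.21%) and 2 of 5 in 4OHT+Fer1 (Plaur and Serpinb2; 7.21%). Between the supernatants of living MEFs, 0 of 5 passed in 4OHT+Fer1 against Fer1 (0.0233% of all genes), in 4OHT+Fer1 against ctrl (0.0311%) and, for Ferrostatin-1 alone, in Fer1 against ctrl, where 0% passed by edgeR and 146 genes had an unadjusted p under 0.05. In the contrast of the 4OHT effect without and with Ferrostatin-1, 0 of 5 and 0.0311% of all genes had an adjusted p under 0.05.

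The other genes of the plasminogen system were read from a list of 32 genes that includes the 5 members, of which 22 were tested. Plasminogen itself (Plg), the coagulation factor F12, the inhibitor genes Serpina5 and Cpb2, and Vtn, which encodes vitronectin, a matrix ligand of uPAR, had 0 counts in all samples. Plat, the gene of the other plasminogen activator, tPA, had 4 counts over all samples, Serpinf2, the antiplasmin gene, had 5, and A2m had 1. Of the activators only Plau and Klkb1 were thus tested, and Klkb1, a plasma kallikrein gene that overlaps the predicted gene Gm45753, had between 0.38 and 6.18 CPM.

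In 4OHT over ctrl, the median log2 fold change of the 22 genes was 0.04 against 0.01 over all genes tested. Of the 22, 1 gene was called higher and 0 lower, where 1.11% of all genes were called. The gene was Fpr1, a formyl peptide receptor that can act with uPAR, with 4.85, 8.61 and 4.68 CPM in 4OHT against 1.62, 1.11 and 2.21 CPM in ctrl, and 6.10 and 8.01 CPM in medium. Its log2 fold change over ctrl was 1.91 (SE 0.42, edgeR adjusted p = 0.0462), and 1.86 over 4OHT+Fer1 (SE 0.42, edgeR adjusted p = 0.0563). The call over ctrl was lost without the replicate block, and it remained in 3 of 14 cases when a single library was left out, namely 4OHT+Fer1 replicate 1, 4OHT+Fer1 replicate 3 or 4OHT replicate 3, with an edgeR adjusted p of up to 0.249 elsewhere. DESeq2 called 4 genes of the list over ctrl, Fpr1, Fpr2, Plaur and Serpinb2. Of all 12851 genes, it called 276 over ctrl, where edgeR called 143.

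In 4OHT over 4OHT+Fer1 and over Fer1, 1 of 22 was called higher, Serpinb2, and 0 lower, where 1.03% and 1.02% of all genes were called. In 4OHT+Fer1 against Fer1 or ctrl, in Fer1 against ctrl and in the contrast of the effects, 0 of 22 were called. Against medium, 1 gene was called higher and 3 lower in ctrl and in Fer1, 1 higher and 4 lower in 4OHT+Fer1, and 1 higher and 0 lower in 4OHT. The shares of all genes called against medium were 7.79% in ctrl, 7.21% in Fer1, 7.21% in 4OHT+Fer1 and 3.07% in 4OHT.

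**Figure D3:**
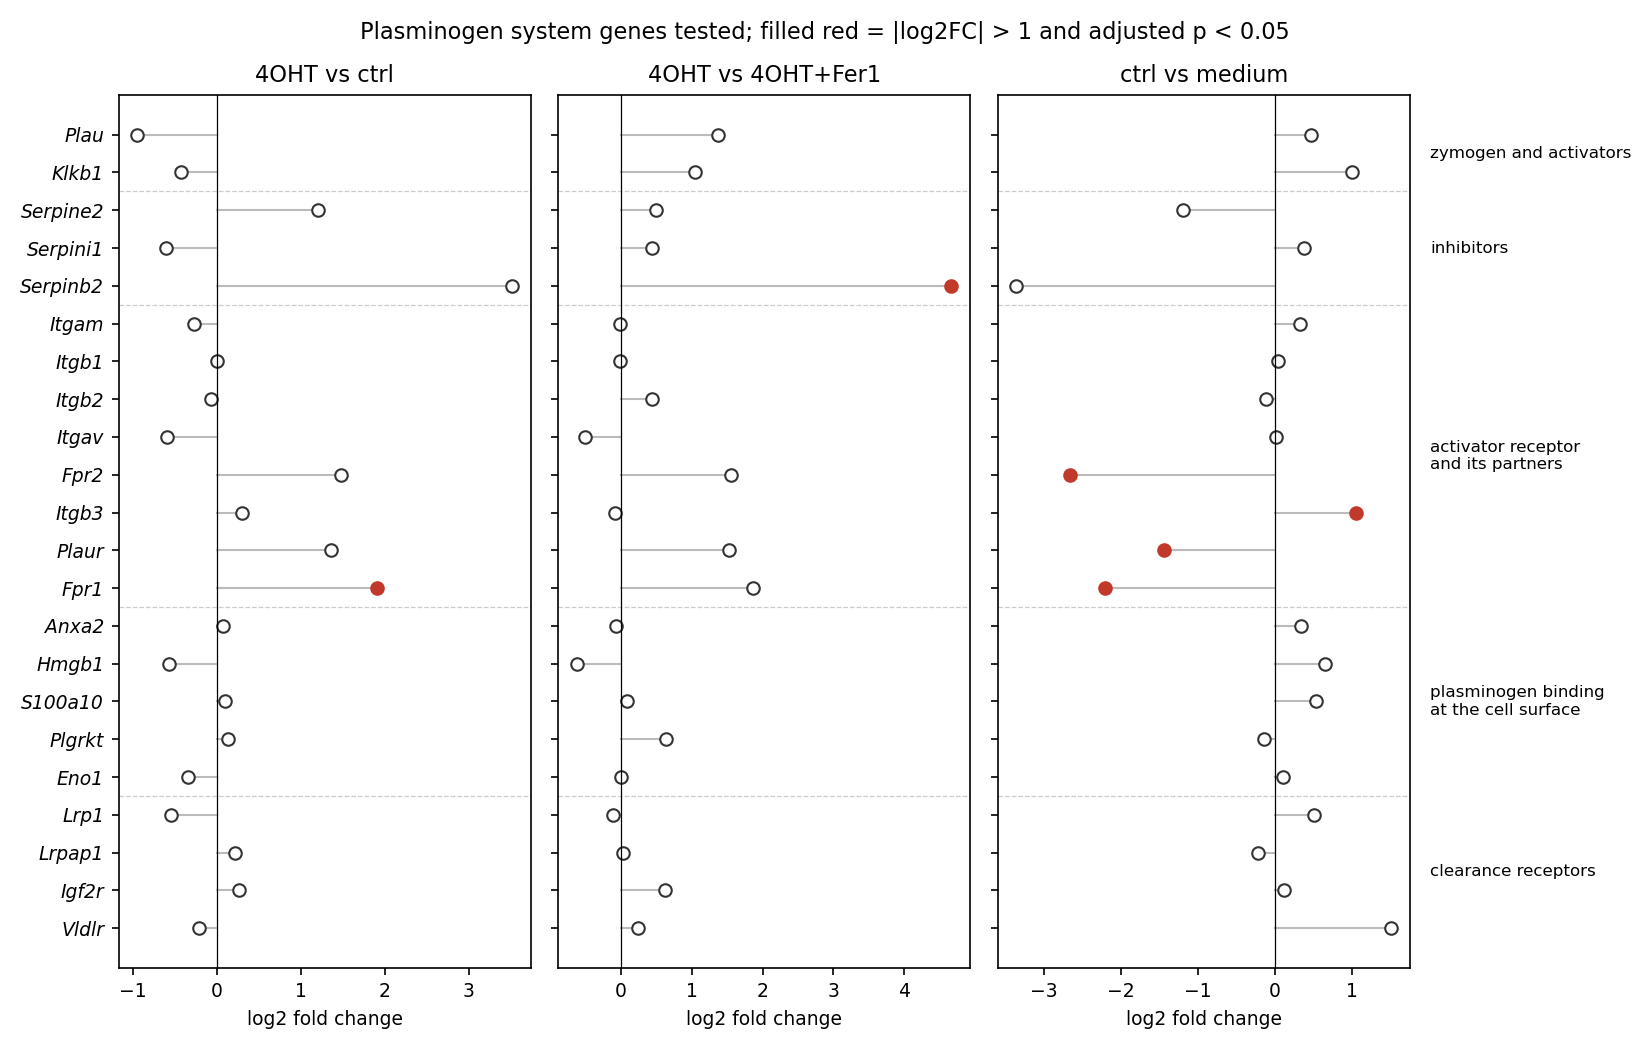
Log2 fold change of the 22 tested genes of the plasminogen system, by role, in 3 comparisons, with called genes in red. Serpinb2 lies farthest to the right in both comparisons of 4OHT, and in ctrl against medium Fpr2, Fpr1 and Plaur are called to the left and Itgb3 to the right.

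Among the inhibitors other than Serpinb2, Serpine2 and Serpini1, genes of the serpin family, reached at most 5.31 CPM in a sample and were not called.

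Among the partners of uPAR, Fpr2, the receptor most like Fpr1, had 4.36, 4.32 and 4.31 CPM in ctrl, 5.26, 3.86 and 4.63 CPM in Fer1, 1.46, 3.93 and 7.17 CPM in 4OHT+Fer1, 14.4, 14.8 and 6.71 CPM in 4OHT, and 30.1 and 23.8 CPM in medium. It was lower than in medium by −2.67 in ctrl (SE 0.49, edgeR adjusted p = 0.00367) and was not called in 4OHT against ctrl. Fpr1 was lower than in medium by −2.21 in ctrl (SE 0.46, edgeR adjusted p = 0.00916). As for Plaur, the supernatants of living MEFs gave the lowest levels of Fpr1 and Fpr2 on average, and the 4OHT samples lay above them without overlap in Fpr1 but not in Fpr2, where 4OHT replicate 3 was lower than 4OHT+Fer1 replicate 3. The calls of Fpr1 and Fpr2 in ctrl against medium remained without the replicate block, and each was lost in 2 of the 3 fits without a replicate number. With a single library left out, that of Fpr2 was lost without medium replicate 1 (edgeR adjusted p = 0.0560), and that of Fpr1 without ctrl replicate 2 (0.0596), medium replicate 1 (0.0544) or medium replicate 2 (0.0944).

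Itgb3, the subunit of the vitronectin receptor, was lowest on average in medium, with 1.78 and 4.12 CPM in medium against 4.36, 8.95 and 3.75 CPM in ctrl and 4.32, 10.1 and 6.58 CPM in 4OHT. It was higher than in medium in 4OHT by 1.36 (edgeR adjusted p = 0.0296) and in ctrl by 1.06 (edgeR adjusted p = 0.0491). It was also called against medium in Fer1, at 1.49 (edgeR adjusted p = 0.00930), and in 4OHT+Fer1, at 1.45 (edgeR adjusted p = 0.0113). Without the replicate block it was not called in any comparison. With a single library left out, the call in 4OHT remained in 9 of 14 fits (edgeR adjusted p up to 0.243) and that in ctrl in 3 of 14 (up to 0.250). The calls in Fer1 and in 4OHT+Fer1 each remained in 11 of 14 (up to 0.108 and 0.122). The integrin genes Itgam, which shares 3450 exonic bases with the predicted gene Gm49368, Itgb1 and Itgb2 were abundant, between 136 and 940 CPM, and were not called. Of the clearance receptors, which take up complexes of urokinase and its inhibitors, Lrp1, Igf2r and Lrpap1, the chaperone gene of Lrp1, were not called. Hmgb1, whose product can bind plasminogen at the cell surface, had between 183 and 407 CPM and exceeded medium in 4OHT+Fer1 by 0.71 (edgeR adjusted p = 0.0381), below the fold threshold.

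**Figure D4:**
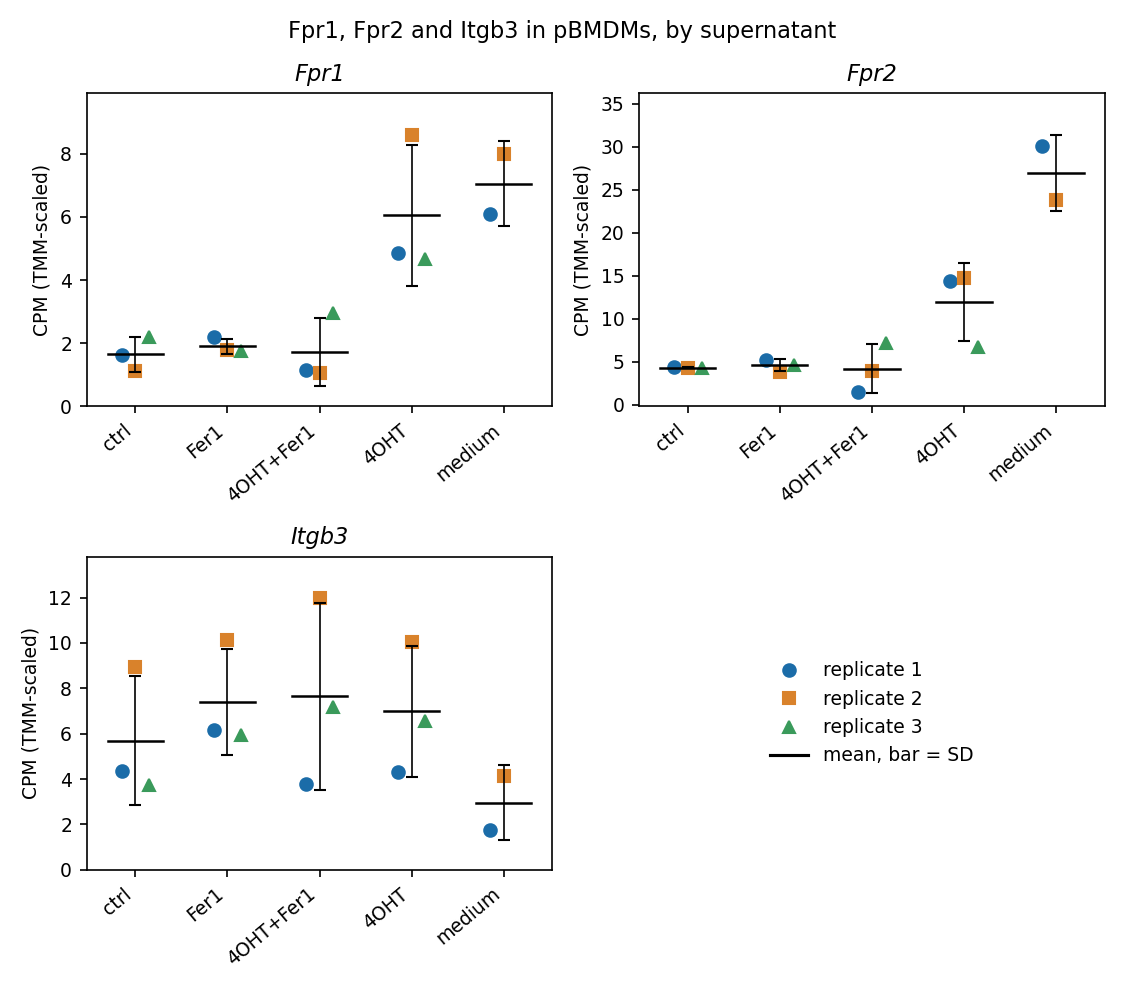
Level in every sample, in CPM on a linear axis, of Fpr1, Fpr2 and Itgb3, with symbols, lines and SD bars as for the members. Fpr1 and Fpr2 are high in 4OHT and medium, and Itgb3 is lowest in medium on average.

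The genes most like each member were those with the highest Pearson r of log2 CPM over the 14 samples, which share their libraries and their groups. For Serpinb2 they were Il1b (r = 0.917), Trim65 (0.915), Vcan (0.900), Lima1 (0.897) and Nfkbie (0.896). For Plaur they were Tm9sf4 (0.938), Ehd1 (0.924), Fkbp1b (0.916), Degs1 (0.907) and Crkl (0.907). For Plau the list was led by Cox7c (0.947), Iscu (0.942) and Snx3 (0.938), for S100a10 by Ifi30 (0.922), Alox5ap (0.912) and Fdx1 (0.900), and for Anxa2 by Glrx5 (0.939), Nme1 (0.914) and Psmd13 (0.905). Among the members, r was 0.75 between Plaur and Serpinb2, −0.46 between Plau and Anxa2, and between −0.37 and 0.24 for the other pairs, with 0.20 for S100a10 and Anxa2. Serpinb2 had 0 reads in replicates 1 and 2 of ctrl, Fer1 and 4OHT+Fer1. Every r with it therefore rests in part on samples at the floor.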

How the data were processed

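Per the labels and methods, the authors aligned 50-bp reads from the 3′ end of transcripts (QuantSeq) with STAR 2.7.10a and deposited expected counts per gene from Salmon 1.5.2, without normalization. The methods name a human genome, the submitters' notes list GRCh38 and GRCm38, and the identifiers are those of mouse genes. The authors' table of DESeq2 comparisons and its 14 columns of per-sample CPM were not used.

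Expected counts were rounded (30109 values were not whole), although the plan spoke of counts, filtered with filterByExpr (minimum count 10), scaled by TMM factors, and fitted with edgeR 4.0.16 under R 4.3.3 in 1 model of the 14 samples, with group and replicate number. Methods were tested on simulated counts. The replicate number was assumed to be the mouse, which the authors had in their design. Deviations from group means had a median correlation of 0.25 (lowest 0.0022) in 26 same-numbered pairs and −0.14 in 52 others. Nothing else shows separate cultures, so p-values measure the spread between these samples, which exceeded sampling noise (chi-square per degree of freedom 10.8 to 80.4). Correlations used log2 CPM with a prior count of 2.

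Coordinates are from GENCODE M21 (GRCm38), which held 52081 of the 55414 identifiers, and promoters from RefSeq, found for 3 of the 5 genes. The members and lists were chosen with earlier results of these data known, and 2 genes of the plasminogen list are not reported here. Named were all members, listed genes with an adjusted p below 0.05, up to 3 abundant genes per role, and the genes most like each member. Alternatives were DESeq2 1.42.0, no replicate block, other scaling, filters, thresholds and samples, and each library left out.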

Additional observations from a re-analysis of the deposited data

How the results depend on the processing

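Without the replicate block, 0 of the 5 members were called in every comparison, where the block gave 1 in 4OHT against 4OHT+Fer1, 4OHT against Fer1, ctrl against medium and Fer1 against medium, and 2 in 4OHT+Fer1 against medium. Of all 12851 genes tested, the block gave 132, 131, 1001, 927 and 926 calls in these comparisons, in that order. Without the block there were 18, 7, 457, 453 and 485, so the loss was not particular to the members. DESeq2 called 2 in 4OHT against ctrl, ctrl against medium and Fer1 against medium (Plaur and Serpinb2), and it gave Serpinb2 no adjusted p in 4OHT against 4OHT+Fer1 or Fer1. Of all genes tested, DESeq2 called 276 in 4OHT against ctrl, 1153 in ctrl against medium and 1058 in Fer1 against medium. With no filter, 1 was called in 4OHT against ctrl (Plaur) and 2 in 4OHT against 4OHT+Fer1. With CPM above 1 in 3 samples, which removed Serpinb2, 0 were called in 4OHT against 4OHT+Fer1, 4OHT against Fer1 and Fer1 against medium, and 1 in 4OHT+Fer1 against medium. With only the groups compared in the model, 0 were called in 4OHT against 4OHT+Fer1 or Fer1, where Serpinb2 was not tested. In that setting it was not tested in ctrl, Fer1 or 4OHT+Fer1 against medium either. The genes called there were Plaur in ctrl against medium (edgeR adjusted p = 0.00567) and in Fer1 against medium (0.00755). In 4OHT+Fer1 against medium they were Plau (0.0486) and Plaur (0.00531). When a library or a replicate number was left out, the members called numbered 0 to 1 in 4OHT against ctrl, 4OHT against Fer1 and ctrl against medium, 0 to 2 in 4OHT against 4OHT+Fer1 and Fer1 against medium, and 0 to 3 in 4OHT+Fer1 against medium. The causes were not tested.

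The direction held in 1123 recomputed log2 fold changes on the same side of the threshold, in 56 that lost it and in 15 that gained it, and it turned in 69. With total counts the log2 fold change was −0.0057 for S100a10 in 4OHT+Fer1 against ctrl and 0.011 for Plaur in 4OHT against medium, which was 0.029 without the replicate block. With only the groups compared it was −0.17 for Plau in ctrl against medium. The other turns came with a library or replicate number left out, and some of these values were not near 0, such as that of Serpinb2 in 4OHT+Fer1 against ctrl, −1.16 with all libraries. For Plau it ran from −0.57 to 0.33 in 4OHT against Fer1, from −1.22 to 0.028 in 4OHT against medium, from −0.11 to 1.45 in ctrl against medium, from −0.78 to 0.14 in Fer1 against medium and from −0.12 to 1.37 in the contrast of effects. For Plaur it ran from −0.62 to 0.20 in 4OHT+Fer1 against ctrl and from −0.44 to 0.35 in 4OHT against medium. For Serpinb2 it ran from −1.59 to 1.57 in 4OHT+Fer1 against Fer1, from −2.70 to 1.79 in 4OHT+Fer1 against ctrl, from −2.71 to 1.84 in Fer1 against ctrl and from −0.41 to 0.41 in 4OHT against medium. For S100a10 it ran from −0.12 to 0.31 in 4OHT against ctrl, from −0.087 to 0.35 in 4OHT against 4OHT+Fer1, from −0.27 to 0.16 in 4OHT against Fer1, from −0.26 to 0.011 in 4OHT+Fer1 against Fer1 and from −0.11 to 0.14 in 4OHT+Fer1 against ctrl. For Anxa2 it ran from −0.31 to 0.28 in 4OHT against ctrl, from −0.33 to 0.13 in 4OHT against 4OHT+Fer1, from −0.22 to 0.18 in 4OHT against Fer1, from −0.10 to 0.27 in 4OHT+Fer1 against Fer1, from −0.089 to 0.35 in 4OHT+Fer1 against ctrl, from −0.21 to 0.22 in Fer1 against ctrl and from −0.44 to 0.35 in the contrast of effects. Serpinb2 rested on 44 reads in 4OHT and at most 13 elsewhere, so that depth limits every statement on it. Effects of the list alternatives, chosen after seeing the data except DESeq2, the block and the fold threshold, ranged from 0 to 4 called genes in 4OHT against ctrl.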

Other observations

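Of 16 genes of clade B serpins, the family of Serpinb2, 8 were tested. Serpinb2 was the only one called in any comparison. Serpinb6a, the most abundant, had between 291 and 587 CPM over all samples, and the median log2 fold change of the family in 4OHT over ctrl was 0.27 against 0.01 over all genes tested. The family median in 4OHT was 0.07 over 4OHT+Fer1, 0.06 over Fer1 and 0.03 over medium. These medians include Serpinb2, which was tested only through its 4OHT samples. Of 12 annexin genes, 9 were tested and 0 were called by edgeR in any comparison. Anxa5, a binder of exposed phosphatidylserine, was the most abundant, with between 391 and 683 CPM.

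Of 14 S100 genes, 9 were tested. S100a8, which encodes a subunit of the neutrophil and monocyte protein calprotectin, had 15.9 and 21 CPM in medium, against at most 13.2 CPM in any other sample. It was lower than in medium by −1.49 on the log2 scale in ctrl (edgeR adjusted p = 0.0101), −1.57 in Fer1 and −1.51 in 4OHT+Fer1, the 3 comparisons in which it was called. Without the replicate block it was called in none of them. The neutrophil markers summed to more in medium than in the other groups, as given above, and their part in this was not tested. S100a4 was the most abundant S100 gene, and S100a10 was called nowhere.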
